A study of Homo sapiens with 2 samples.

Results

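Weaker NRF-1 peaks that lay inside protein-coding genes, away from transcript starts, and that were found both in control and in AATF-depleted glioblastoma cells are described here. They were 1290 of the 18014 peaks called in siControl cells (7.16%), or 7.23% of the 17850 on chromosomes 1 to 22 and X, and are called members below. A member was a siControl peak on those chromosomes with a −log10 q under 10 that overlapped a peak of the siAATF list by at least 1 base, overlapped no 1 kb window on either side of a protein-coding or lncRNA transcript start, and overlapped the body of a protein-coding gene. The −log10 q is the peak caller's measure of how significant a peak was over its local background, which is not the same as its fold enrichment. It chose the members, so their low values are a property of the selection. Of the 17850 peaks, 8947 (50.1%) were under the threshold, 6937 of these (77.5%) were shared with the siAATF list, 2608 of the shared ones (37.6%) lay away from starts, and 1290 of those (49.5%) were in a coding gene.

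Chromatin came from the established human glioblastoma line U251, transfected either with siAATF #1 to deplete AATF or with the control oligonucleotide (siControl), and was immunoprecipitated with an antibody against NRF-1. Libraries were made by ChIPmentation, in which the Tn5 transposase adds the adapters to chromatin on the beads, and 1 peak list per condition was used. There was no replicate, so no difference between conditions could be tested, and the p-values below compare groups of peaks within 1 list at a time, or peaks with nearby windows, and cover counting error among peaks only. The design text of the series names U138 cells, whereas both sample labels name U251. The siAATF list held 18454 peaks, and the number of reads behind either list is unknown.

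NRF-1 (nuclear respiratory factor 1) is a transcription factor that binds a GC-rich palindrome, mostly in CpG-rich promoters, and is best known for driving nuclear genes that encode mitochondrial proteins. AATF is a transcriptional cofactor that has been studied as a partner of NRF-1. AP-1, whose site is used below, is a dimer of FOS and JUN family proteins that binds mainly at enhancers, many of them inside introns.

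The sequences that the comparisons below turn on are shown first. Only 2 members held the exact 10-letter NRF-1 core GCGCATGCGC, read on both strands. Their bases around the core, which is in capitals, are printed 5′ to 3′ on the plus strand of hg19, and the names give the host gene and the position.
VAV1 intron 6, chr19:6822530-6822589: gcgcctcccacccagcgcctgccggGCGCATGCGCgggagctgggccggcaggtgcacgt
LINGO2 intron 5, chr9:28362203-28362262: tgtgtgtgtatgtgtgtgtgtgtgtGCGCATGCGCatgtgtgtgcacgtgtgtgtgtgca
The core in LINGO2, which encodes a neuronal leucine-rich repeat protein, stood within a run of alternating T and G. That in VAV1, which encodes a signalling protein of blood cells, lay in intron 6, in a peak whose midpoint was in exon 6. By contrast, 377 members held the 7-letter AP-1 word TGAGTCA on either strand. The 5 with the highest siControl −log10 q are printed in the same way, with the word in capitals as it reads on the plus strand, where TGACTCA is the word on the minus strand.
NEK6 intron 2, chr9:127072066-127072122: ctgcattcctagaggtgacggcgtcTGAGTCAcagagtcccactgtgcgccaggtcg
NINJ2 intron 1, chr12:679762-679818: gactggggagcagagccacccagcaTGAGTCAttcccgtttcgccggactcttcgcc
SH3PXD2B intron 2, chr5:171835041-171835097: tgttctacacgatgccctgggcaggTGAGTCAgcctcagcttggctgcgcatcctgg
CNIH3 intron 3, chr1:224914594-224914650: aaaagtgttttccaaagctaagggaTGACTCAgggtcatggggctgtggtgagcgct
EXD3 intron 1, chr9:140305187-140305243: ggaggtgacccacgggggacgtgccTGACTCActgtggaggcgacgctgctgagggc
All 5 were in introns, where 87.8% of member midpoints lay. NEK6 encodes a mitotic kinase, NINJ2 a cell surface adhesion protein, SH3PXD2B an adaptor of invadopodia and CNIH3 an auxiliary subunit of AMPA receptors.

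A further 35 members held the NRF-1 core with 1 mismatch, which made 37 (2.87%) with at most 1 mismatch. Of the 5 of these with the highest siControl −log10 q, VAV1 is printed above and 3 more are printed here to show the near matches, a set picked after the values were seen, with the 10 letters in capitals.
ANG intron 1, chr14:21160695-21160754: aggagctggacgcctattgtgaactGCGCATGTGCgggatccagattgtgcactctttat
GDF15 exon 2, chr19:18499376-18499435: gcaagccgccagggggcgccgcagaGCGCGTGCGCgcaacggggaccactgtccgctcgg
CFDP1 intron 5, chr16:75354137-75354196: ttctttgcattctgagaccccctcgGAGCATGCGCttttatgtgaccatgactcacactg
The peak in ANG, which encodes angiogenin, also lay in the body of RNASE4. GDF15 encodes a stress-induced cytokine. The CFDP1 peak also held the AP-1 word, which can be read near the end of the printed run.

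The members were low and narrow in both lists. In siControl, fold enrichment over the local background ran from 2.12 to 7.55 with a median of 4.37, −log10 q ran from 1.03 to 9.99 with a median of 3.85, and width ran from 200 to 1664 bp with a median of 395 bp. In siAATF, the overlapping peaks (counterparts) had a fold enrichment of 2.29 to 9.51 with a median of 4.41, a −log10 q of 1.04 to 22.7 with a median of 4.05 and a median width of 424.5 bp. The siAATF −log10 q was not capped by the selection, and 77 counterparts (5.97%) were at 10 or above. Counterparts coincided closely with members: they covered a median of 87.9% of the member, the midpoints were a median of 53 bp apart, and 1281 members (99.3%) paired 1 to 1. Just inside the threshold were the members in ZCCHC14 (siControl −log10 q 9.95), NEK6 (9.98) and MATN4 (9.99), and the shared peaks just outside it lay in LMTK3 (10.01), KCNMA1 (10.02) and STK11 (10.04).

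Weak peaks in coding genes were found again less often than strong ones. Among the 2045 weaker peaks in coding genes away from starts, 63.1% were shared and so became members, whereas 455 stronger peaks of the same location (99.8%) were shared and 1 was not. The 755 weaker peaks that were not found again (siControl-only peaks) had a lower median −log10 q of 2.25 and a smaller median width of 270 bp. Sharing itself is part of the rule, so these values are a description.

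The members with the highest siControl fold enrichment were mostly intronic. The first was in intron 11 of CDKAL1, a tRNA-modifying enzyme, with a fold of 7.55 in siControl and 7.04 in siAATF (chr6:21022723-21023117). It was followed by intron 1 of ZCCHC14, with 7.44 in siControl and 6.35 in siAATF, and by intron 78 of DMD, the dystrophin gene, with 7.23 and 7.57. All members of this group except those in DMD and LRRC4C were lower in siAATF. The group was picked on a high siControl fold, which by itself favours lower siAATF values, so this is a description. The peak in intron 7 of MAPKAP1, which encodes a subunit of the mTORC2 kinase complex, had 7.21 in siControl and 5.16 in siAATF. The peak in intron 1 of PTK2B, a focal adhesion family kinase, had 7.09 and 5.14. The remaining 5 lay in KIF13B, LRRC4C, PARD6B, DYNC1I1 and RERG, with siControl folds from 7.08 to 7.19 and siAATF folds from 5.74 to 7.53. The one in DYNC1I1 was in exon 15.

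The place of the members within genes was read at the peak midpoint, which was inside a coding gene body for 1282 of them. An intron held 1126 midpoints (87.8%, exact 95% CI 85.9 to 89.6) and an exon held 156 (12.2%, 10.4 to 14.1). Exons were those of protein-coding transcripts, and intron here means the rest of the gene body. That rest may include exons of other transcript types. The coding gene bodies open to the rule, those over 1 kb from any start, spanned 1231 Mb and were 94.6% intronic and 5.37% exonic, so the exonic share of the members was above that of the sequence. Coding sequence held 85 midpoints (6.63%, against 2.27% of the bases) and 3′ UTR held 69 (5.38%, against 3.01%), while 5′ UTR held 2. Among introns, the first intron of the canonical transcript took 293 midpoints (22.9%, against 19.5% of the bases) and later introns took 645 (50.3%, against 62.9%). The remaining 188 were elsewhere in gene bodies, outside introns of the canonical transcript and outside exons of protein-coding transcripts. Members were found at 1.05 per Mb of this sequence.

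**Figure D1:**
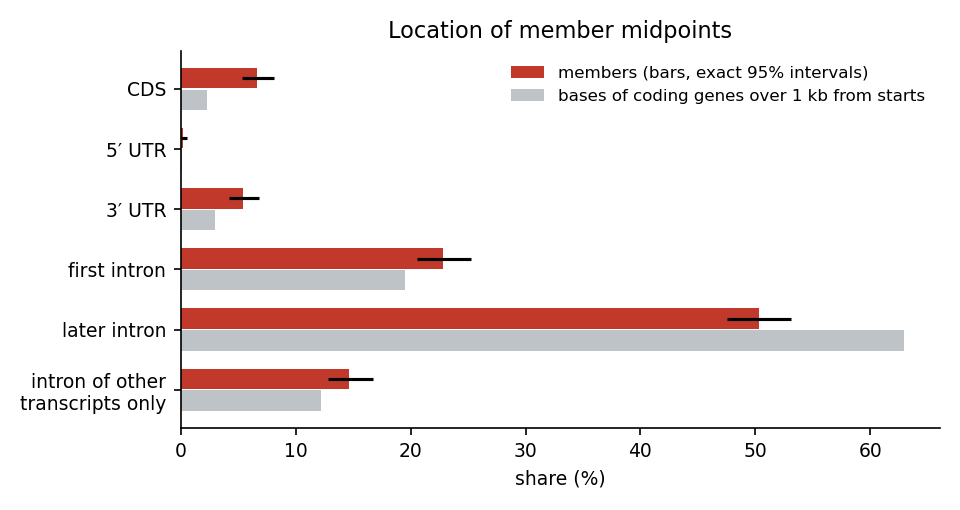
Share of the 1282 member midpoints (red, with exact 95% intervals) in each kind of gene segment, beside the share of all bases of coding gene bodies over 1 kb from a start (grey), in percent. Coding sequence, 3′ UTR and first introns lie above their share of bases, and later introns lie below it. The bar for introns of other transcripts holds all remaining gene body outside exons of protein-coding transcripts.

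The nearest protein-coding or lncRNA start was a median of 10200 bp from the midpoint, from 1125 to 337177 bp. Within 1 kb of a start of another transcript type, such as a processed transcript or a pseudogene, lay 198 members (15.3%). Members close to a start were richer in CpG. A sequence with the composition of a CpG island (GC content over 50% and a ratio of observed to expected CpG over 0.6, over the peak itself) was found in 33.6% of the 113 members up to 2 kb from a start, and in 10.4% (5.51 to 17.5) of the 115 members over 50 kb away. The AP-1 word was found in 23.9% (16.4 to 32.8) and 27.8% (19.9 to 36.95) of these, intervals that overlap, and its highest share was 35.8% at 20 to 50 kb.

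Density also varied between chromosomes. It was highest on chromosome 19, with 126 members or 4.38 per eligible Mb, followed by chromosomes 17 (2.92 per Mb) and 16 (2.38 per Mb). The lowest was 0.297 per Mb on X, with 15 members. Across the 23 chromosomes the density followed the GC content of the eligible gene bodies, with a Spearman rank correlation of 0.885, given as a description because the chromosomes share 1 library.

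**Figure D2:**
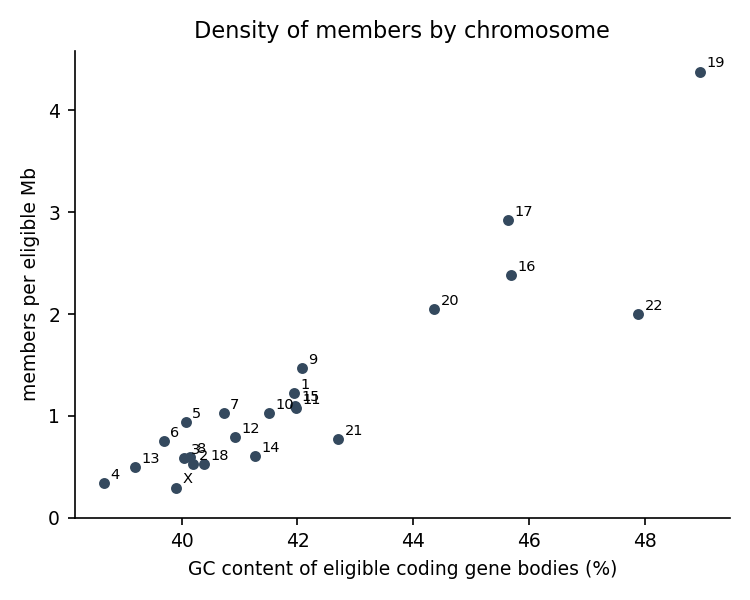
Members per Mb of coding gene body over 1 kb from a start (y axis) against the GC content of the same sequence in percent (x axis), with 1 point per chromosome. Chromosome 19 stands highest at 4.38 per Mb, and X and 4 are lowest, at 0.297 and 0.341.

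The sequence of the members was compared with 4 other classes of siControl peaks and with windows of the same width 5 kb away. The windows lay inside coding genes and were kept only where they overlapped no peak of either list. They are therefore peak-free sequence and not unselected neighbouring DNA. Windows near a transcript start were not left out. The classes were 1318 weaker shared peaks outside coding genes, 4329 weaker shared peaks at transcript starts, the 455 stronger shared peaks in coding genes and the 755 weaker siControl-only peaks in coding genes. Shares were compared by Fisher's exact test, two-sided, over 43 comparisons, and with the windows by the exact McNemar test over 10, each with Benjamini-Hochberg adjustment. Peak widths differed between classes, with medians from 270 to 666 bp, and a wider peak has more room for a word.

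The AP-1 word was far more frequent in the members than in the peak-free windows 5 kb away. It was held by 377 of 1290 members (29.2%, 26.8 to 31.8), against 11.1% of all siControl peaks. In the 1276 pairs of a member and a window, 29.4% of members and 7.29% of windows held it (adjusted p = 2.48e-48, exact McNemar test). The share was 21.8% in weaker shared peaks outside coding genes (adjusted p = 3.69e-05, Fisher's exact test), 8.09% in weaker shared peaks at starts (adjusted p = 1.88e-74) and 23.1% in stronger shared peaks in coding genes (adjusted p = 0.0253). The last of these differences was 6.15 points, and it missed the threshold when the −log10 q limit was 5 (4.33 points), when starts within 5 kb were left out (5.71 points) and when the rule was applied to the siAATF list (5.11 points). Within 100 bp of the midpoint, where width matters less, 19.1% of members held the word, and the members were 3.90, 15.7, 6.32 and 7.68 points above the weaker shared peaks outside coding genes, the peaks at starts, the stronger peaks and the siControl-only peaks, all past the threshold.

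**Figure D3:**
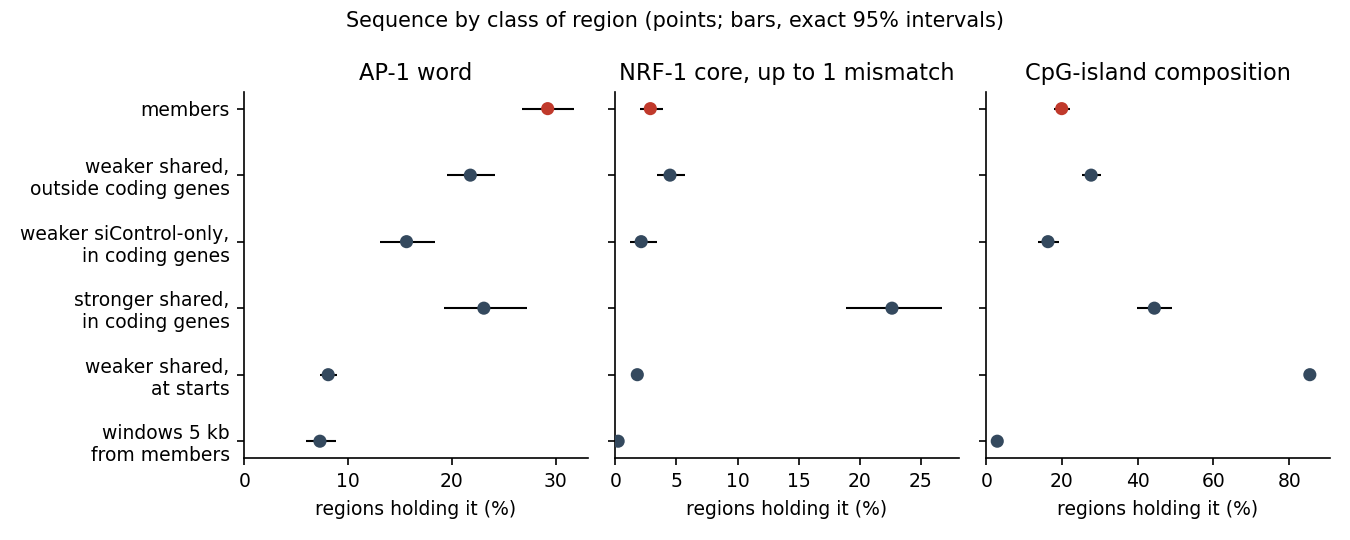
Share of regions (x axes, percent) with the AP-1 word, with the NRF-1 core (1 mismatch allowed) and with the composition of a CpG island, by class of region, as points with exact 95% intervals. Members (red) are highest for the AP-1 word at 29.2%, low for the core at 2.87%, and far below the peaks at starts in CpG-island composition, at 19.9% against 85.5%.

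Where the word was present, its place differed little between members and windows. Of the 377 members with it, 142 (37.7%) had one within 50 bp of the midpoint, with the nearest a median of 73 bp away, and in the 93 windows with it these values were 33.3% and 82 bp. One copy was held by 302 members, 2 copies by 68 and 3 by 7. When all 8191 words of 7 letters were counted with strand ignored, the AP-1 word had the largest difference between members and windows, 22.1 points. It was followed by CCCAGGG (34.7% of members and 17.1% of windows) and CCCGCCC (25.2% and 7.52%). This count was made after the AP-1 share had been seen.

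**Figure D4:**
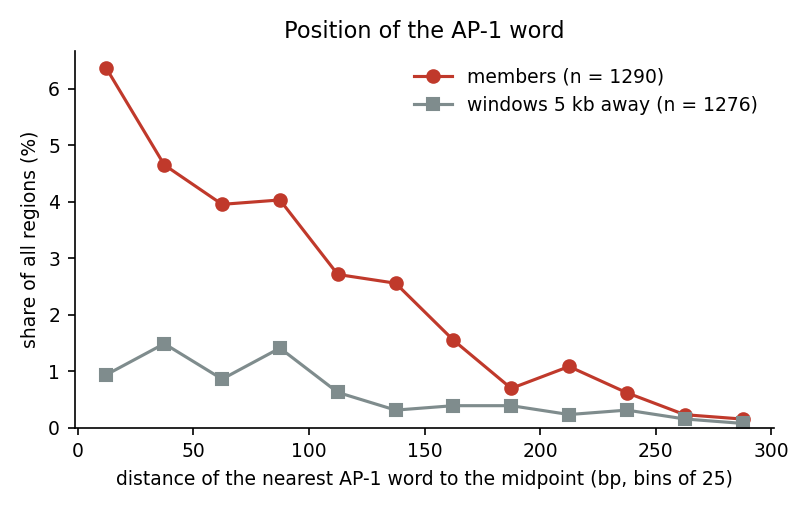
Distance of the nearest AP-1 word to the midpoint (x axis, bp, bins of 25) and the share of all members (red, n = 1290) or of windows of equal width 5 kb away (grey, n = 1276) in each bin (y axis, percent). The share of members falls away from the midpoint and stays above that of the windows in every bin drawn, most in the first. Narrow peaks end before the outer bins: 1116 members reach 100 to 125 bp and 198 reach 275 to 300 bp. Part of the fall therefore reflects peak width.

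Against the siControl-only peaks, the AP-1 word separated the members in 1 list and not in the other. In the siControl list it was held by 15.6% (13.1 to 18.4) of these 755 peaks, 13.6 points below the members (adjusted p = 9.90e-12, Fisher's exact test). When the same rule was applied to the siAATF list, 389 of the 1281 weaker shared peaks held it (30.4%), as did 328 of the 1029 weaker siAATF-only peaks (31.9%, 29.0 to 34.8), a difference of −1.51 points (adjusted p = 0.556, Fisher's exact test). In the siAATF list the word was thus no more frequent in shared peaks than in unshared ones. The unshared peaks of both lists were set side by side after this was seen, as a description. The AP-1 word was in 31.9% of the siAATF-only and 15.6% of the siControl-only peaks, and CpG-island composition in 8.26% and 16.3%. Fisher's exact test was run on these shares, but its p-values are not given because peaks are not replicates of a condition. Each set came from 1 list, so a difference between the conditions and a difference between the libraries cannot be told apart.

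The NRF-1 core was rare in the members. With up to 1 mismatch it was held by 37 (2.87%, 2.03 to 3.93), against 17.4% of all siControl peaks and 22.6% of the stronger shared peaks in coding genes (adjusted p = 8.13e-34, Fisher's exact test). It was still more frequent than in the windows, 0.235% (adjusted p = 7.22e-08, exact McNemar test). Its share was 1.80% in weaker peaks at starts (adjusted p = 0.0476, Fisher's exact test). This difference of 1.07 points missed the threshold under 5 alternatives, and under 1 of these, leaving out starts within 5 kb, it was −0.0768 points. It stayed past the threshold within 100 bp of the midpoint, where width matters less, with 1.56 points. The rule applied to the siAATF list also kept it past the threshold, with 1.48 points. Weaker shared peaks outside coding genes held the core in 4.48% (adjusted p = 0.0663, Fisher's exact test). This difference of −1.61 points passed the threshold under 4 alternatives, with −1.73 to −3.09 points. Within 100 bp of the midpoint it was −0.858 points and missed the threshold. The siControl-only peaks held the core in 2.12% (adjusted p = 0.475, Fisher's exact test). The exact core was in 0.155% of members, 0.986% of the weaker shared peaks outside coding genes (adjusted p = 0.0165) and 3.30% of the stronger peaks in coding genes (adjusted p = 4.54e-07), and in 2.84% of all siControl peaks.

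The NRF-1 core and the AP-1 word were spread differently over the range of siControl −log10 q. A core match with 1 mismatch or none was in 0.741% of the 135 members at 1 to 2, in 1.62% of the 555 at 2 to 4 and in 7.08% (3.11 to 13.5) of the 113 at 8 to 10. The AP-1 word was in 30.4%, 29.0% and 26.5% (18.7 to 35.7) of the same groups, and CpG-island composition in 12.6%, 16.9% and 25.7%. These bins are the readout that chose the members, and median width rose across them from 346 to 522 bp, so the shares are a description.

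The members were GC-rich but mostly not CpG-rich. Their median GC content was 58.4%, against 49.3% in the windows, and 257 (19.9%, 17.8 to 22.2) had the composition of a CpG island. The share was 72.3% of all siControl peaks, 85.5% of the weaker peaks at starts, 44.4% of the stronger peaks in coding genes (adjusted p = 3.76e-22, Fisher's exact test), 27.7% of the weaker shared peaks outside coding genes (adjusted p = 1.04e-05), 16.3% of the siControl-only peaks (adjusted p = 0.0776) and 2.90% of the windows (adjusted p = 9.78e-42, exact McNemar test). The difference of 3.63 points from the siControl-only peaks passed the threshold under 3 alternatives, with 5.37 to 12.04 points. The GC box GGGCGG, a site of the SP family of factors, was likewise most frequent at starts. It was in 39.5% of members, 84.5% of the weaker peaks at starts (adjusted p = 5.15e-208, Fisher's exact test), 39.4% of the weaker shared peaks outside coding genes, 75.7% of all siControl peaks and 15.1% of the windows.

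CpG-rich members differed from the other 1033 in place and in sequence. The AP-1 word was in 9.34% of the 257 CpG-rich members and in 34.2% of the others (adjusted p = 1.52e-16, Fisher's exact test over 5 features). Midpoints were exonic in 26.1% and 8.62% (adjusted p = 2.47e-12, Fisher's exact test), and a start of another transcript type was within 1 kb in 30.7% and 11.5% (adjusted p = 2.47e-12). First introns held 19.5% and 23.5% (adjusted p = 0.229, Fisher's exact test), and the NRF-1 core with up to 1 mismatch was in 2.72% and 2.90%, a difference within counting error. Neither the AP-1 word nor this composition was present in 655 members when those with the core were also set aside.

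Other words were searched on both strands, and none of the words contains another, although matches in the genome may overlap. The CTCF core CCNCNAGNNGGC, a part of the site of the factor that anchors chromatin loops, was in 8.53% of members, against 1.96% of windows (adjusted p = 5.24e-14, exact McNemar test), 4.24% of siControl-only peaks (adjusted p = 0.000534, Fisher's exact test) and 11.4% of all siControl peaks. The TEAD word GGAATG was in 25.7% of members, 20.4% of windows (adjusted p = 0.00182, exact McNemar test) and 25.3% of all siControl peaks. In the pairs of members and windows, the E-box CACGTG was in 9.40% of members and 7.05% of windows (adjusted p = 0.0474, exact McNemar test). Over all members it was in 9.69%, against 14.7% of the weaker peaks at starts (adjusted p = 7.18e-06, Fisher's exact test), 20.4% of the stronger peaks in coding genes (adjusted p = 5.76e-08) and 16.3% of all siControl peaks. The promoter words were scarce. The ETS word ACTTCCGG was in 0.853% of members and 8.55% of the weaker peaks at starts (adjusted p = 3.83e-29, Fisher's exact test), with 6.77% of all siControl peaks. The CRE TGACGTCA was in 0.698% of members and 3.51% of the peaks at starts (adjusted p = 1.35e-08, Fisher's exact test), with 3.36% of all siControl peaks. The NFI palindrome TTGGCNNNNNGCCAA was in 0 members and in 12 of all siControl peaks. A match describes the letters of the peak and is not a bound site.

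The strength of members and counterparts was compared by percentile rank of fold enrichment within each list, from 0 for the weakest peak to 100 for the strongest, because depth is unknown. The median rank was 25.3 in siControl and 28.2 in siAATF. Over the 1281 members that paired 1 to 1, the change from siControl to siAATF had a median of 2.76 points, against 0.243 over all 15644 pairs. A rise of over 20 points was found for 186 members (14.5%, 12.6 to 16.6), against 5.52% of all pairs, and a fall of over 20 points for 96 (7.49%, 6.11 to 9.07), against 4.1%. By −log10 q the counts were 130 that rose (10.1%, against 2.84%) and 67 that fell (5.23%, against 2.01%). Members were selected on a low siControl value, and the same rule applied to the siAATF list gave a median of 0.684 points, with 149 that rose and 118 that fell among 1269 pairs. Over the 1206 members (93.5%) chosen under both rules the median was 1.85 points. The excess of rises over falls therefore moved with the list in which the peaks were chosen, and no change was tested.

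**Figure D5:**
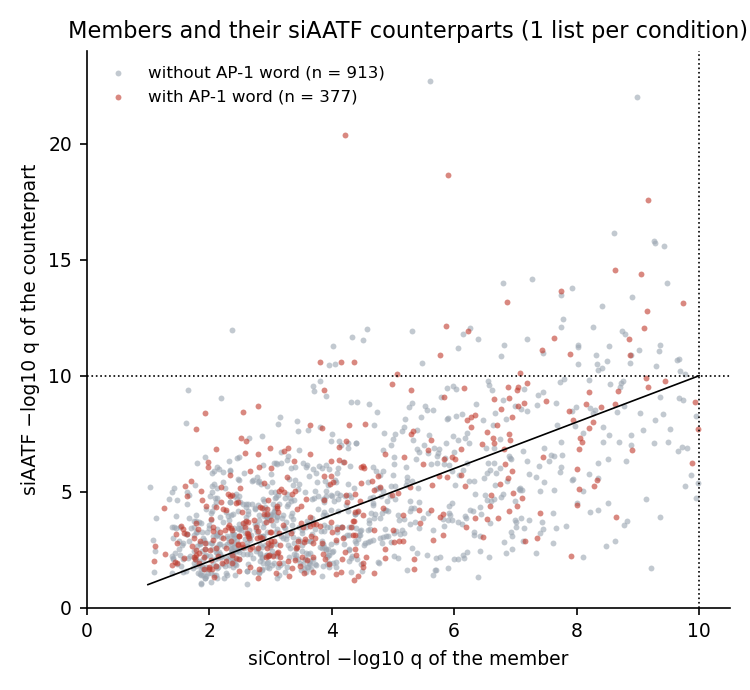
The −log10 q of each member in siControl (x axis) and of its counterpart in siAATF (y axis), for members with (red, n = 377) and without (grey, n = 913) the AP-1 word, with the line of equal values and dotted lines at 10. The selection ends the x axis at 10, while 77 counterparts lie at or above 10 on the y axis, and both colours spread on either side of the line.

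Rank changes were also split by the sequence of the member, a choice made after the values were seen and given as a description. The median change was 4.87 points (order-statistic 95% interval 3.08 to 6.75) for the 377 members with the AP-1 word and 1.76 points (0.474 to 3.12) for the 904 without it. It was −6.80 points (−10.6 to 2.86) for the 37 that held the near or exact core and −0.543 points for the CpG-rich members. These intervals cover the spread among peaks only. Peaks are not replicates of a condition, so the intervals do not measure a difference between conditions. Under the rule applied to the siAATF list, the medians were 4.44 points with the AP-1 word, −0.591 points without it and −8.20 points with the core. The siControl fold enrichment of members with and without the AP-1 word was the same to 3 digits, with a median of 4.37 in both.

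The members that changed rank most moved far in both directions. The peak in the body of SEMA4B, a semaphorin gene, rose by 59.1 points, from a −log10 q of 4.22 in siControl to 20.4 in siAATF, and held the AP-1 word (chr15:90708969-90709330). The peak in intron 1 of DLG5, a scaffold of cell polarity, rose by 56.8 points (−log10 q 2.37 and 11.95), and that in intron 1 of EYA2, a transcriptional coactivator with phosphatase activity, by 53.6 points (1.66 and 9.40). DYNLRB1, a dynein light chain, rose by 51.1 points (5.89 and 18.6) with an AP-1 word, and JARID2, a partner of the Polycomb complex PRC2, by 50.02 points (5.61 and 22.7). The largest fall was at VAV1, one of the members with the exact NRF-1 core printed above, whose −log10 q dropped from 9.22 to 1.71 after AATF depletion, with fold enrichment of 6.79 and 3.56. The other exact core, in LINGO2, had a −log10 q of 2.64 in siControl and 1.88 in siAATF. Falls at STXBP4 (7.91 and 2.22), CAV2 (7.33 and 2.37), CTNNA2 (5.69 and 1.62) and FGGY (5.90 and 1.71) came next, and of these STXBP4 held the AP-1 word.

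The near matches to the core that are printed above did not move together. The ANG peak had a −log10 q of 8.77 in siControl and 3.56 in siAATF, whereas GDF15 had 8.74 and 11.9 and CFDP1 had 8.63 and 14.5. Among the AP-1 members printed, CNIH3 was higher in siAATF (9.74 and 13.1) and EXD3 slightly so (9.44 and 9.76). NEK6 (9.98 and 7.70), NINJ2 (9.93 and 8.88) and SH3PXD2B (9.89 and 6.22) were lower. The printed members were picked on a high siControl −log10 q, which by itself favours lower siAATF values.

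The members were spread over 1122 coding genes, of which 947 held 1, 127 held 2 and 48 held 3 or more, and 66 members lay in more than 1 gene. GSE1, a gene for a coiled-coil protein found in histone deacetylase complexes, held the most, with 11 in 507 kb. Their siControl −log10 q ran from 1.57 to 7.19 and their siAATF −log10 q from 1.54 to 9.69, 7 of the 11 were higher in siAATF, and 2 held the AP-1 word. AOPEP, an aminopeptidase gene of 425 kb, held 7, of which 6 were higher in siAATF (siControl −log10 q 2.22 to 6.11, siAATF 2.83 to 8.78). MSI2, an RNA-binding protein of neural progenitors, SEPTIN9, a cytoskeletal GTPase, and NFIC, a transcription factor, held 6 each, and 3, 4 and 5 of these were higher in siAATF. Over all members, 728 (56.4%) had a higher −log10 q in siAATF.

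Host genes were long, with a median of 82.5 kb against 27.3 kb over all 20098 coding genes. A siControl peak within 1 kb of a coding start was found for 822 of the 1122 (73.3%, 70.6 to 75.8), against 60.2% of all coding genes. Within length quartile 4, the longest genes, the shares were 78.2% (74.7 to 81.4) and 72.4%, and within quartile 1 they were 43.9% (28.5 to 60.3) and 39.4%. In quartile 3 they were 75% (69.8 to 79.7) and 68.8%, and in quartile 2 the host share was the lower, 59.1% (51.2 to 66.7) against 60.2%, so a higher host share was not found in every length class. In siAATF the number of host genes with a promoter peak was also 822, against 59.7% of all coding genes. They were not all the same genes, because length quartile 3 held 231 of them in siControl and 226 in siAATF.

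Known targets of NRF-1, together with the genes AATF and NRF1, were looked up among the hosts. None of TFAM, the mitochondrial transcription factor, AATF or NRF1 held a member. Of 78 genes for nuclear subunits of the OXPHOS complexes, which are short (median 12.6 kb), 2 held one (2.56%, 0.312 to 8.96), against 5.58% of all coding genes and 3.26% of those in length quartile 2 (median 16.6 kb). The interval holds both shares. Density per eligible Mb was 0.994 members over all coding genes and 2.29 over those in length quartile 2. In the OXPHOS genes it was 1.5, from 2 members. These were NDUFC1, a complex I subunit, with a −log10 q of 6.93 in siControl and 3.25 in siAATF (chr4:140216610-140217040), and ATP5MC2, a subunit of the ATP synthase ring, with 2.39 and 1.75. Both were lower in siAATF and neither held the AP-1 word.

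Among 35 genes altered in glioblastoma (median length 45.7 kb), 3 held a member (8.57%, 1.80 to 23.1). The share was 5.58% of all coding genes and 6.13% of those in length quartile 3 (median 43.5 kb), and the interval holds both. The receptor gene EGFR held 2, both in intron 1, with a −log10 q of 5.70 in siControl and 2.15 in siAATF at chr7:55198394-55198686, and of 3.42 and 2.52 at chr7:55154260-55154501. CCND2, which encodes cyclin D2, held 1 with a near match to the core (4.84 and 3.03), and the receptor gene MET held 1 (4.84 and 5.02). Only the MET peak was higher in siAATF, 1 of 4, beside 56.4% of all members.

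Genes of the actin cytoskeleton and focal adhesions had the highest share of genes with a member among the lists examined, with an interval that overlaps those of the other lists except OXPHOS. Of 51 such genes, 14 (27.5%, 15.9 to 41.7) held 18 members, or 2.03 per eligible Mb against 0.994 over all coding genes. They are long (median 119 kb), and 12.1% of coding genes in length quartile 4 held a member. ACTN4, an actin crosslinker, held 4, with siControl −log10 q from 1.57 to 4.76 and siAATF from 3.39 to 5.54, all higher in siAATF. ACTN1, its paralogue, held 2 (1.99 to 5.78 and 6.05 to 9.08). LIMA1, a regulator of actin bundles, had 5.32 in siControl and 11.9 in siAATF, and the integrin gene ITGB1 had 2.19 and 4.57. In contrast, MYH9, a nonmuscle myosin heavy chain, had 6.20 and 2.40, and the caveolin gene CAV2 is among the largest falls given above. In all, 12 of the 18 were higher in siAATF, beside 56.4% of all members, and 7 held the AP-1 word (29.2% of all members).

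The extracellular matrix list had 6 of 45 genes with a member (13.3%, 5.05 to 26.8), in genes with a median length of 89.3 kb, against 5.58% of all coding genes and 12.1% of those in length quartile 4. All 8 of their members were higher in siAATF, beside 56.4% of all members, which were selected on a low siControl value. They included the collagen gene COL4A2 with 3 (siControl −log10 q 1.39 to 8.73, siAATF 2.21 to 9.69), the laminin gene LAMA1 (6.85 and 8.15), the fibulin gene FBLN1 (4.88 and 6.62) and fibronectin, FN1 (2.88 and 3.05). In FN1 the peak lay in the last of 46 exons. No test between the lists was possible.

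The neuronal lists hold the longest genes, and of coding genes in length quartile 4, 12.1% held a member, at 0.776 members per eligible Mb. Of 53 axon guidance and neuronal adhesion genes, 11 (20.8%, 10.8 to 34.1) held 14 members, at 0.459 per eligible Mb, in genes with a median length of 375 kb. The interval of this share holds that of quartile 4. CDH4, a cadherin gene, held 3, of which the strongest had a −log10 q of 9.69 in siControl and 10.2 in siAATF, and EPHB2, an ephrin receptor, had 6.07 and 2.10 at a peak with a near match to the core. Of 41 glutamate and GABA receptor genes, 5 (12.2%, 4.08 to 26.2) held 7 members at 0.536 per Mb, in genes with a median length of 239 kb, a share at the level of quartile 4. The peak in intron 2 of the kainate receptor gene GRIK2 had 8.99 in siControl and 22.003 in siAATF, and that in the NMDA receptor gene GRIN1 had 1.63 and 7.96. In this list 6 of the 7 were higher in siAATF, beside the 56.4% of all members, which were selected on a low siControl value.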

How the data were processed

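NRF-1 ChIPmentation libraries of siControl and siAATF U251 cells were analysed as 1 broad peak list per condition. The study describes the experiment as done in duplicate, both labels carry replicate number 1, and whether reads were pooled was not stated. Per the study's methods, the authors aligned reads to hg19 with Bowtie2 and called peaks with MACS2 inside nf-core/atac-seq 2.0 with defaults, and no input library was named. The fold enrichment over local background is a ratio deposited by the authors. Each deposited −log10 p and −log10 q is MACS2 output that the authors left unchanged. A deposited score column, made by the peak caller for display, repeats the −log10 q in truncated form and was set aside. The depth is unknown because the lists hold no read counts, and a pipeline made for ATAC-seq may shift reads at the transposase cut, which would move peak edges.

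Members were found with Python 3.11.15, pandas 2.3.3, numpy 2.4.6, scipy 1.17.1 and pysam 0.24.0, and figures were drawn with matplotlib 3.10.9. Annotation was GENCODE release 44 lifted to GRCh37, with 20098 coding genes, and the sequence was the GRCh37 primary assembly. Words were matched on both strands with up to 1 mismatch for the NRF-1 core only. Windows lay 5 kb from a member, inside a coding gene body, and overlapped no peak of either list. Shares carry exact Clopper-Pearson 95% intervals, which cover counting error only, and the tests are exact and two-sided. Overlap and tests were checked on simulated data. Coordinates are 1-based.

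The members, the gene lists and the tests were chosen with earlier results of these data known. Named were the 3 members just inside and the 3 peaks just outside the threshold, the 10 with the highest siControl fold enrichment, those with the exact core, 5 with the AP-1 word, the 5 that rose and the 5 that fell most in rank, the 5 genes with most members, members of each gene list with the highest siControl −log10 q, and TFAM, AATF and NRF1. Near matches to the core and further members of the actin, matrix and receptor lists (ACTN1, ACTN4, LIMA1, ITGB1 and GRIN1) were named after their values were seen. Sequences on chromosome 8 are not printed.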

Additional observations from a re-analysis of the deposited data

How the results depend on the processing

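In all, 35 results were recomputed, each under those of 12 alternatives that apply to it. Of 143 recomputed tested differences, 125 kept their side of the threshold, and those past it kept their direction. A change of sign between values that both missed the threshold was not counted as a change. The core against siControl-only peaks was such a case, with 0.749 points in the main setting and −0.0334 points at a −log10 q limit of 5. A limit of 5 on the −log10 q gave −1.90 points for the core (up to 1 mismatch) against weaker shared peaks outside coding genes and 0.391 points against peaks at starts, 4.33 points for the AP-1 word against stronger peaks, a median rank change of 4.54 points, and 17.8% that rose and 3.74% that fell. A limit of 20 gave 0.860 points for the core against peaks at starts, and 1.79 points for the core and 6.83 points for CpG-island composition against siControl-only peaks. A limit of 10 in both lists gave −1.73 points for the core against peaks outside coding genes and 12.4% that rose. Reciprocal overlap of 50% gave 1.12 points for the core against peaks at starts. Leaving out starts within 2 kb gave −1.99 and 0.958 points for the core against peaks outside coding genes and at starts, and within 500 bp it gave 5.37 points for CpG-island composition against siControl-only peaks. Leaving out starts within 5 kb gave 91.1% intronic midpoints, −3.09 points for the core against peaks outside coding genes and a reversed −0.0768 points against peaks at starts, 5.71 points for AP-1 against stronger peaks, and 77.1% of hosts with a promoter peak. Ranking by −log10 q gave 10.1% that rose and 5.23% that fell. The rule applied to the siAATF list gave a median rank change of 0.684 points, 11.7% that rose and 9.30% that fell, 5.11 points for AP-1 against stronger peaks, a reversed −1.51 points for AP-1 against unshared peaks, and 2.48 and 12.04 points for the core and CpG-island composition against unshared peaks. The cause of these shifts was not tested. The split of rank changes by word, with its siAATF rule and −log10 q versions, was added after the data had been seen.

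No paired analysis was possible because both labels carry replicate number 1 and 1 list per condition was used. The lists carry no depth, the limit of detection of either list is unknown, and no spread between replicates stands behind any value.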
